A study of Mus musculus with 14 samples.

Results

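Bone marrow cells of the LSK phenotype (Lin-, Sca1+, Kit+), the fraction that holds mouse haematopoietic stem cells and multipotent progenitors, were compared for 35 genes of DNA repair: the Fanconi pathway, homologous recombination, end joining of broken ends, damage sensing and 2 further repair genes. A gene was measured by its brightest probe set with a single annotated symbol, taken over the mean of all arrays. By that rule 33 of the 35 genes were found among the 18194 genes on the arrays, and Xrcc2 (homologous recombination) and Dclre1c (end joining) had no such probe set. The 33 comprised 8 Fanconi genes, 12 of homologous recombination, 6 of end joining, 5 of damage sensing and 2 others. The main comparison set the 20 Fanconi and homologous recombination genes beside the 6 end-joining genes across 5 levels of a diluting label.

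All mice were double transgenics on a C57BL/6 background in which the human CD34 promoter drives tTA, a transactivator that is switched off by doxycycline, and tTA drives histone H2B fused to GFP, so only cells that have used that promoter carry the label. Every group drank water with 1 mg/ml doxycycline for 12 weeks, begun when the mice were 6 to 8 weeks old, which stopped new labelling and left divisions to dilute the GFP. LSK cells were then sorted by GFP from GFP0, the most diluted, to GFP4, the most retained, with about 1 to 2 divisions between levels by the submitters' estimate. Amplified RNA was read on Affymetrix arrays, and all values are log2 expression of a probe set after RMA normalization, so a difference of 1 is a doubling. There were 2 arrays of GFP0, 3 of GFP1, 3 of GFP2, 2 of GFP3 and 4 of GFP4. These are biological replicates by their labels, with no animals or pools named, so the p-values measure the spread between these samples.

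A crosslink that ties the DNA strands together is recognised by the Fanconi core complex (Fanca, Fancb, Fancc, Fancg, Fancl and Fancm), which has ubiquitin attached to the paired proteins Fancd2 and Fanci. Breaks can then be repaired by homologous recombination, which copies the sister chromatid and is therefore tied to S and G2 phase: Brca1 and Bard1 promote resection, Palb2 and Brca2 act together on the resected ends, and Rad54l and Blm remodel the joint molecules. Classical end joining needs no template and can act in cells that do not divide: Xrcc5 and Xrcc6 form the Ku dimer on the end, Prkdc is the kinase it recruits, and Lig4 with Xrcc4 and Nhej1 seals the break. Haematopoietic stem cells divide rarely, and inherited loss of Fanconi genes leads to bone marrow failure.

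Promoter sequences of 4 members are printed because promoters of genes expressed in S phase often carry a binding site of E2F factors. Bard1 and Lig4 passed the slope test given below, and Brca2 and Xrcc6 passed only the comparison of GFP4 with GFP1 and GFP2. RefSeq windows on GRCm38 covered 250 bases before to 50 bases after the annotated start and were found for 29 of the 35 genes; Fancd2, Rad54b, Xrcc2, Exo1, Prkdc and Nbn were not matched. The E2F-type forms searched on both strands were TTTCCCGC, TTTGGCGC, TTTCGCGC, TTTGCCGC and GGCGGGAA. Capitals mark a match to these, written on the strand of the gene, and matches of the first and last form can overlap. The 250 bases before the start are shown for Bard1 (chr1:71102973-71103222, minus strand), Brca2 (chr5:150522371-150522620, plus strand), Xrcc6 (chr15:82016119-82016368, plus strand) and Lig4 (chr8:9977681-9977930, minus strand, the first of 2 windows), the last as a member without any of these letters.
Bard1: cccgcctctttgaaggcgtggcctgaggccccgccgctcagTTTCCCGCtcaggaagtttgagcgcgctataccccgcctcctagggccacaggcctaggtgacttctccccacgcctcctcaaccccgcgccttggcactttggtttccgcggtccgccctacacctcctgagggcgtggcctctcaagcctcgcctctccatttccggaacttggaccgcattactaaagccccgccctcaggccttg
Brca2: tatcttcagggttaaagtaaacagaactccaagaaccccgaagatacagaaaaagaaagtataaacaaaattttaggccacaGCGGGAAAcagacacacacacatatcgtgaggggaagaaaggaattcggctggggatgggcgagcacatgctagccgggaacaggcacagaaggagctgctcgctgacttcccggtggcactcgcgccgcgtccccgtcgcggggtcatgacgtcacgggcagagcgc
Xrcc6: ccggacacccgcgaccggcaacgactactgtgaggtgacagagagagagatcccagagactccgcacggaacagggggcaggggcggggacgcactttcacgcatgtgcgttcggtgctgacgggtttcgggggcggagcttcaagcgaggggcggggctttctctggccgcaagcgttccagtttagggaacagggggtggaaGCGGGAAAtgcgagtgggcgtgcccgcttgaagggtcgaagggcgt
Lig4: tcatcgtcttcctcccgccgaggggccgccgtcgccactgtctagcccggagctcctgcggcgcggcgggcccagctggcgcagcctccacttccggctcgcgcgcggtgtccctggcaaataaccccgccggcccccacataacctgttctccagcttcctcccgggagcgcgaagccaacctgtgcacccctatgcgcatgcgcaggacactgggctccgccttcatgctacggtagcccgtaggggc

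The match lay 209 to 202 bases before the start in Bard1, 168 to 161 in Brca2 and 46 to 39 in Xrcc6, the last 2 on the opposite strand. At least 1 form was found in 10 of the 29 members with a window (34.5%), in 7 of 17 Fanconi and homologous recombination genes (41.2%) and in 1 of 6 end-joining genes (16.7%, Xrcc6). The share was 6.55% over the 14453 array genes with a window, 4.46% over all 27025 genes of the promoter table, and 54.2% (13 of 24) in a list of S phase genes. CCAAT, searched the same way, was found in 55.2% of the members and 42.0% of array genes, and TTTGAA in 3.45% and 15.7%. Forms were also found in Fancg and Fancm, whose slopes were near 0 (0.03 and -0.04). In Rad51ap1, the member with the lowest slope, the form lay only after the start (12 to 19 bases), and Rad54l had none. A match describes these letters and is not a bound site, and its relation to the slopes was not tested.

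Quality values and markers are given once. Signal distributions were narrow in GFP0 replicate 1 and GFP4 replicate 1 (interquartile ranges of 2.09 and 2.21 against up to 2.73), and results were also computed without them. Of the genes of the LSK gate, Kit was measured (8.05 to 9.91 over the arrays), and Ly6a, which encodes Sca1, had no single-symbol probe set. Cd34 (9.73 to 12.01) and Ly6e (11.09 to 13.08), which are not part of the gate, were measured beside them. Known stem cell genes rose with GFP in 10 of 12 cases (their mean went from 8.30 in GFP0 to 10.45 in GFP4). The means of marker lists of other blood cells were lower in GFP4 than in GFP0. Some of their genes fell by slope, in the numbers given below, where 1.07% of all genes fell and 2.28% rose. The mean of 13 neutrophil and monocyte genes spanned 10.26 to 11.60 in GFP0, 8.19 to 11.29 in GFP1, 7.86 to 10.68 in GFP2, 8.01 to 8.64 in GFP3 and 7.93 to 10.11 in GFP4, with 1 of the 13 passing the slope test. The means of 9 mast cell and basophil genes (8.61 to 8.90 in GFP0, 6.83 to 8.17 in GFP4), 9 B cell genes (7.92 to 9.11, 7.28 to 7.77), 9 T and NK cell genes (7.86 to 8.59, 7.15 to 7.56) and 8 erythroblast genes (8.14 to 9.14, 7.40 to 7.91) were also lower in GFP4, with 3, 2, 1 and 2 genes falling by slope. Of the 8 erythroblast slopes 3 were above 0. RMA values have no zero, and the dimmest neutrophil marker was Itgam at 4.92 to 5.60. The 3′ minus 5′ difference of Actb, a sign of RNA quality and amplification, was 4.39 and 4.51 in GFP0, 2.99 to 4.72 in GFP1, 3.57 to 3.93 in GFP2, 4.01 and 4.20 in GFP3 and 3.99 to 5.05 in GFP4. That of Gapdh overlapped between GFP2 (5.43 to 5.81) and GFP4 (5.29 to 6.57). Beyond the fit with 3′ to 5′ covariates given below, the part of these differences in the results on repair genes was not tested.

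**Figure D1:**
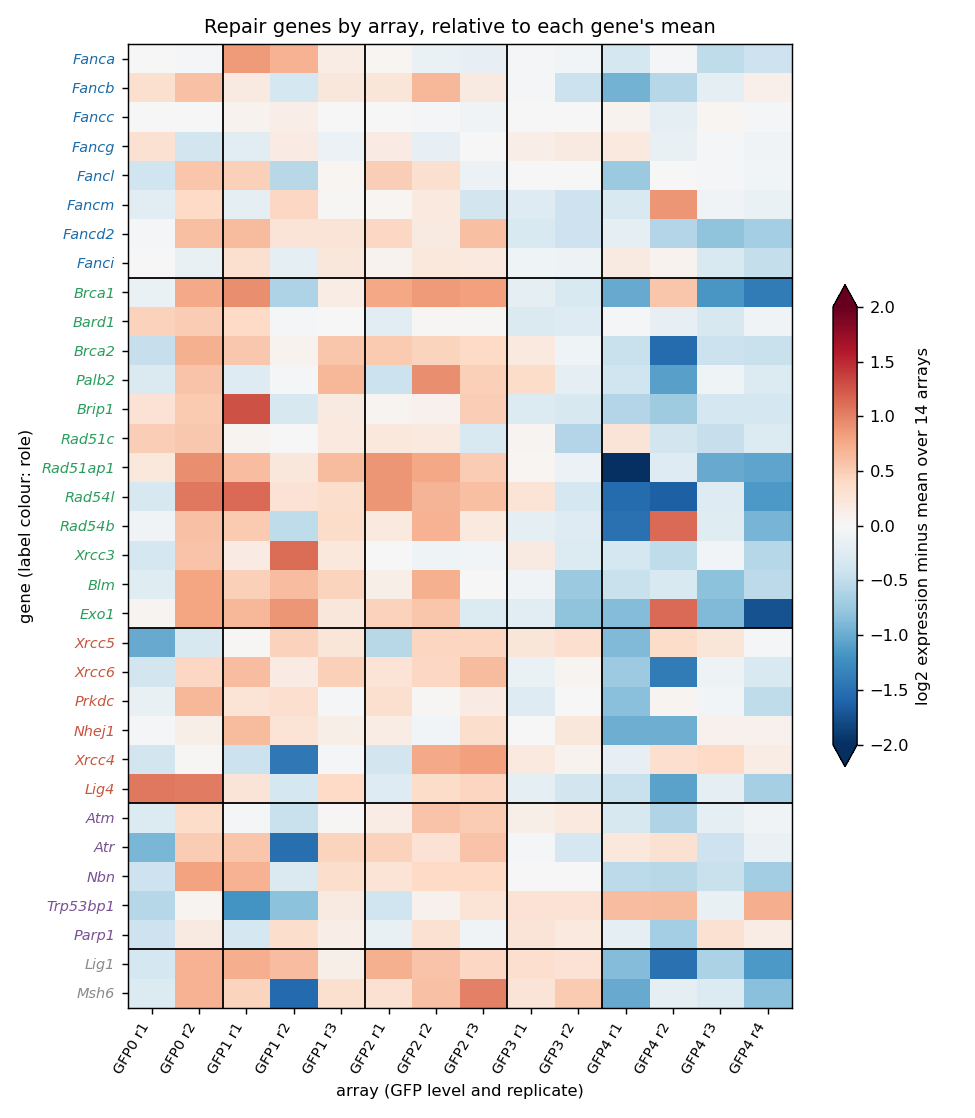
Log2 RMA value of each of the 33 repair genes (rows, by role) in each of the 14 arrays (columns, by GFP level), drawn as the difference from the gene's own mean over the arrays. Most homologous recombination genes lie below their mean in the GFP4 arrays, whereas rows such as Xrcc4 and Trp53bp1 do not.

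Falls between neighbouring levels were more frequent among repair genes at the retained end of the label. Of the 33 group means, 17 were lower in GFP1 than in GFP0 and 13 in GFP2 than in GFP1. At the later steps 27 were lower in GFP3 than in GFP2 and 27 in GFP4 than in GFP3. The median step was -0.01, 0.07, -0.29 and -0.21 for the members in that order. For all genes it was -0.05, -0.02, 0.01 and 0.05. Not every member followed this: Lig4, Bard1, Rad51c, Xrcc4 and Trp53bp1 had their largest fall from GFP0 to GFP1 (-0.95, -0.36, -0.43, -0.46 and -0.35). A slope, the mean change in log2 value per GFP level with equal weight for each level, was below 0 for 27 of the 33 genes. Over all genes 54.8% of slopes were below 0. After Benjamini-Hochberg adjustment over all genes, 4 of the 33 genes fell (Fancd2, Bard1, Rad51ap1 and Lig4) and 0 rose, where 3.35% of all genes were called, 1.07% lower (195) and 2.28% higher. At an unadjusted p below 0.05, 18 of the 33 members and 1274 of the 18194 genes had a negative slope.

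Of the 8 Fanconi genes 1 fell by slope, where 1.07% of all genes fell, and the slopes of 5 lay between -0.06 and 0.03. Fancd2, the ubiquitinated centre of the pathway, measured 7.35 and 7.99 in GFP0, 8.02, 7.65 and 7.65 in GFP1, 7.80, 7.57 and 7.99 in GFP2, 7.07 and 6.96 in GFP3, and 7.20, 6.80, 6.58 and 6.71 in GFP4. All GFP4 arrays lay below all GFP0, GFP1 and GFP2 arrays, and both GFP3 arrays did so too. The slope of Fancd2 was -0.24 ± 0.05 per level (moderated SE, limma adjusted p = 0.0258). Its partner Fanci had a slope of -0.03 with a 95% interval of -0.14 to 0.07; the difference between the partners was not tested. The core complex genes Fancc (-0.01), Fancg (0.03), Fancl (-0.06) and Fancm (-0.04) had slopes near 0, and Fanca (-0.13, adjusted p = 0.19) and Fancb (-0.19, adjusted p = 0.13) had lower slopes that did not pass. Fancg, the highest of the list, had level means (± SD over the arrays of a level, here and below) of 7.67 ± 0.48 in GFP0, 7.65 ± 0.20 in GFP1, 7.71 ± 0.17 in GFP2, 7.87 ± 0.04 in GFP3, and 7.70 ± 0.15 in GFP4. The median slope of the list was -0.05 against -0.0095 for all genes.

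Homologous recombination genes had slopes below 0 in 12 of 12 cases (54.8% over all genes), from -0.40 to -0.125 per level, with a median of -0.23. Rad51ap1, which stimulates strand pairing, had the lowest slope of all members. Its values were 10.45 and 11.16 in GFP0, 10.84, 10.46 and 10.86 in GFP1, 11.11, 11.00 and 10.74 in GFP2, 10.27 and 10.11 in GFP3, and 7.86, 9.98, 9.22 and 9.17 in GFP4. Every GFP4 array was below every other array, and GFP4 replicate 1 was the lowest by far. The slope was -0.40 ± 0.10 (limma adjusted p = 0.0388).

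Bard1, the partner of Brca1 in its ubiquitin ligase, gave a different shape. It measured 5.95 and 6.00 in GFP0, 5.88, 5.46 and 5.48 in GFP1, 5.26, 5.51 and 5.51 in GFP2, 5.20 and 5.24 in GFP3, and 5.46, 5.32, 5.16 and 5.42 in GFP4. The highest values were in GFP0 and 1 GFP1 array, and the GFP4 arrays overlapped those of GFP1 and GFP2. Its slope was -0.165 ± 0.040 (limma adjusted p = 0.0405). Bard1 was dim: only 10.4% of genes had a lower mean, and no detection calls were at hand.

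Brca1 itself measured 8.34 and 9.25 in GFP0, 9.41, 7.87 and 8.64 in GFP1, 9.26, 9.34 and 9.30 in GFP2, 8.28 and 8.17 in GFP3, and 7.48, 9.03, 7.32 and 7.08 in GFP4. GFP4 replicate 2 lay among the arrays of GFP0 and GFP1 while the other GFP4 arrays were the lowest of all 14, and the slope of -0.25 did not pass (adjusted p = 0.27). Rad54l, a motor protein that remodels chromatin during strand exchange, had a slope of -0.37 ± 0.10 just outside the threshold (adjusted p = 0.059). Blm, the helicase lost in Bloom syndrome (-0.25, adjusted p = 0.063), and Brip1, the helicase bound by Brca1 (-0.25, adjusted p = 0.096), likewise did not pass. The remaining slopes were -0.31 for Exo1, the resection nuclease, -0.20 for Brca2, -0.18 for Rad51c, -0.16 for Rad54b, -0.15 for Xrcc3 and -0.125 for Palb2. Palb2, the highest of the list, had level means of 8.25 ± 0.61 in GFP0, 8.23 ± 0.48 in GFP1, 8.43 ± 0.69 in GFP2, 8.19 ± 0.39 in GFP3, and 7.65 ± 0.44 in GFP4. In this list 2 of 12 genes passed the slope test, both lower, where 1.07% of all genes fell.

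Among end-joining genes the slopes ran from -0.37 to 0.15, and 4 of 6 were below 0 (54.8% over all genes). Lig4, the ligase that seals the break, had the smallest p of all 33 members. It measured 6.79 and 6.77 in GFP0, 5.99, 5.37 and 6.13 in GFP1, 5.47, 6.09 and 6.15 in GFP2, 5.53 and 5.35 in GFP3, and 5.28, 4.66, 5.53 and 5.07 in GFP4. Both GFP0 arrays stood above all others, and 3 of the 4 GFP4 arrays were the lowest of all. The slope was -0.37 ± 0.06 (limma adjusted p = 0.00823). Between the ends GFP4 was lower than GFP0 by a log2 difference of -1.65 ± 0.28 (3.13-fold, limma adjusted p = 0.0125). Lig4 was the 1 member of 33 called in that comparison, in which 1.68% of all genes were called, 0.429% lower and 1.25% higher. Lig4 was also dim, with 13.1% of genes below it. The GFP0 arrays in which Lig4 was high had neutrophil and monocyte means of 10.26 and 11.60. Those means were also high in GFP1 replicates 1 and 2 (11.29 and 10.36), GFP2 replicate 1 (10.68) and GFP4 replicate 2 (10.11). Lig4 measured 5.99, 5.37, 5.47 and 4.66 in these arrays, in that order. The part of other cells in the fall of Lig4 was not tested.

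Xrcc4, which holds Lig4 in its complex, had no negative slope. Its values were 7.74 and 8.13 in GFP0, 7.68, 6.68 and 8.07 in GFP1, 7.74, 8.87 and 8.92 in GFP2, 8.30 and 8.18 in GFP3, and 7.95, 8.45, 8.50 and 8.25 in GFP4. The GFP4 arrays lay inside the range of GFP2, and the slope of 0.15 did not pass (adjusted p = 0.43). Xrcc5, the larger Ku subunit, was lowest in GFP0 replicate 1 (7.13) and GFP4 replicate 1 (7.25). It measured 7.81 in GFP0 replicate 2 and between 7.58 and 8.59 elsewhere, with a slope of 0.12 (limma adjusted p = 0.51). Its partner Xrcc6 had a slope of -0.18 (adjusted p = 0.23), Prkdc one of -0.15 (adjusted p = 0.25) and Nhej1 one of -0.12 (adjusted p = 0.44). Nhej1 had level means of 7.30 ± 0.11 in GFP0, 7.61 ± 0.27 in GFP1, 7.41 ± 0.20 in GFP2, 7.38 ± 0.17 in GFP3, and 6.82 ± 0.61 in GFP4, and GFP4 held 2 arrays at 6.28 and 6.30 and 2 at 7.35.

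**Figure D2:**
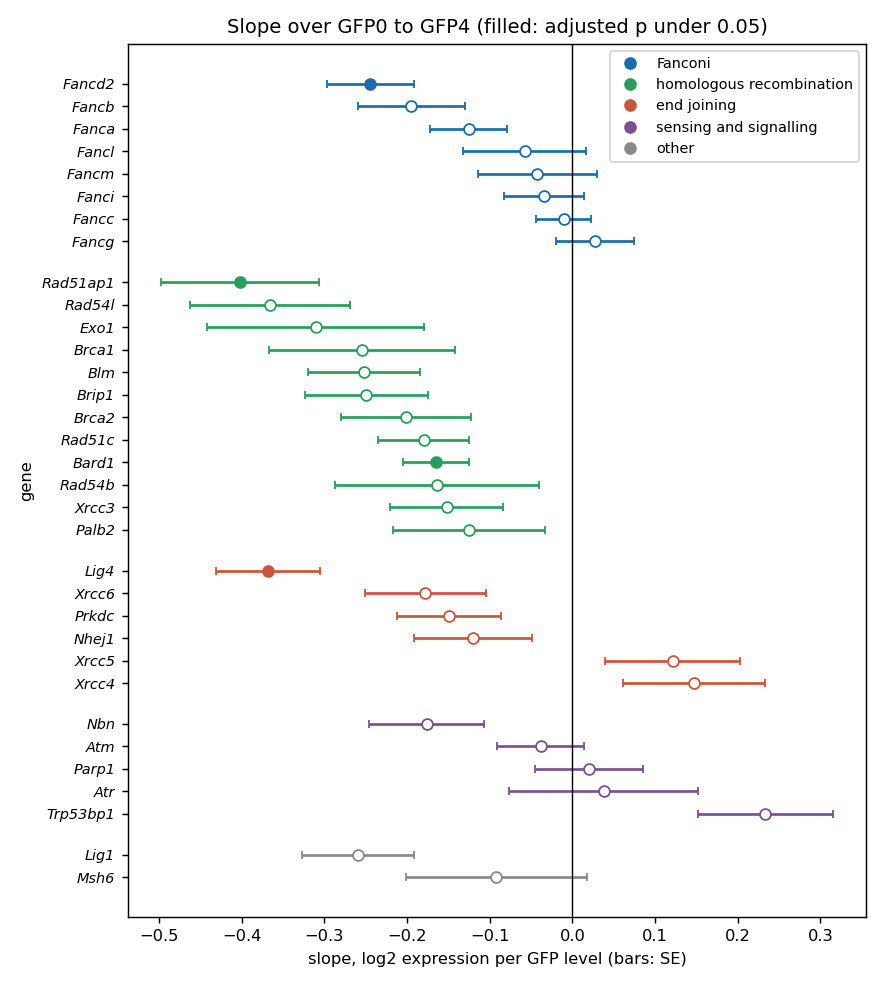
Slope of each of the 33 repair genes (rows, coloured by role) in log2 units per GFP level, with bars of 1 moderated SE and filled points where the adjusted p was under 0.05. The 12 homologous recombination genes all lie left of 0, while the end-joining genes span Lig4 at -0.37 and Xrcc4 at 0.15.

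Setting the lists side by side, the median slope was -0.17 for the 20 Fanconi and homologous recombination genes, -0.13 for the 6 end-joining genes and -0.0095 for all genes. The difference between the list medians was -0.04. The pooled SD between arrays of the difference between the lists' median levels was 0.10 on the slope scale for 1 array a level. The slopes rest on more than 1 array at every level, so 0.10 is too wide a measure for the difference of -0.04. It does not decide whether the lists differ. The mean of the Fanconi and homologous recombination genes was 8.44 ± 0.36 in GFP0, 8.46 ± 0.16 in GFP1, 8.45 ± 0.10 in GFP2, 8.05 ± 0.17 in GFP3, and 7.78 ± 0.16 in GFP4. The end-joining mean was 8.16 ± 0.33 in GFP0, 8.19 ± 0.18 in GFP1, 8.32 ± 0.28 in GFP2, 8.09 ± 0.06 in GFP3, and 7.76 ± 0.31 in GFP4. In the first list every GFP4 array lay below every GFP0, GFP1 and GFP2 array, whereas the GFP4 arrays of the second overlapped every other group.

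Within arrays, the first mean minus the second was 0.28 ± 0.03 in GFP0, 0.28 ± 0.09 in GFP1, 0.14 ± 0.31 in GFP2, -0.04 ± 0.23 in GFP3, and 0.02 ± 0.33 in GFP4, with single arrays from -0.33 to 0.35 in GFP4 and from 0.25 to 0.30 in GFP0. For homologous recombination alone, without the Fanconi genes, the difference to end joining was 0.42 ± 0.18 in GFP0, 0.40 ± 0.09 in GFP1, 0.27 ± 0.30 in GFP2, -0.02 ± 0.30 in GFP3, and -0.09 ± 0.34 in GFP4. The GFP4 arrays of that difference (-0.39 to 0.31) reached into the range of GFP0 (0.29 to 0.55). The trend of that difference was not tested. Without GFP0 replicate 2 the end-joining median was -0.08, and the difference of medians ranged from -0.0707 (without GFP3 replicate 1) to -0.0109 (without GFP4 replicate 3). With other processing it stayed below 0 and was -0.1244 without GFP0 replicate 1, GFP4 replicate 1 and GFP4 replicate 2, -0.0976 without probe sets ending in _x_at or _s_at, -0.091 with array quality weights, -0.0762 with the mean over probe sets and -0.0147 with the replicate number in the fit. The first of these is larger in size than the spread of 0.10. The others are smaller than that spread, which decides nothing, because it is too wide for fits with more arrays a level.

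**Figure D3:**
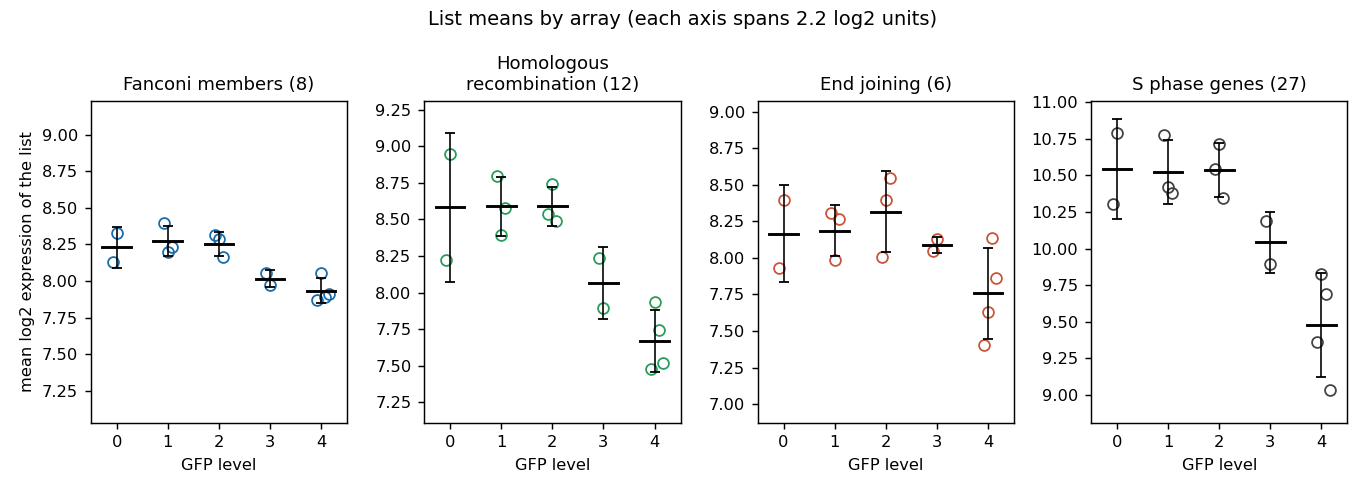
Mean log2 value over the genes of a list in each array (points), with group mean ± SD (bars), by GFP level for the Fanconi, homologous recombination, end-joining and S phase lists. The mean of homologous recombination was 8.58 in GFP0 and 7.67 in GFP4, that of end joining 8.16 and 7.76, and that of the S phase list 10.55 and 9.48.

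No step between neighbouring levels was called in limma for any member or any of the 18194 genes. At an unadjusted p below 0.05, members lower and higher numbered 1 and 2 from GFP0 to GFP1, 1 and 2 from GFP1 to GFP2, 2 and 0 from GFP2 to GFP3, and 4 and 0 from GFP3 to GFP4. Of all genes 10.8%, 2.71%, 1.36% and 3.94% reached that p in either direction in the same order. The median step of the homologous recombination genes was -0.02, 0.01, -0.55 and -0.26 in that order, and that of the end-joining genes 0.12, 0.00, -0.28 and -0.34. No departure from a straight line was called either, in members or in all genes, with 4 of 33 members and 7.01% of all genes at an unadjusted p below 0.05.

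Because most members had like values over the lower labels, GFP4 was also set against the mean of GFP1 and GFP2, a comparison chosen after these values had been seen. Here 6 of 33 members fell (Fancd2, Brca2, Rad51ap1, Rad54l, Xrcc6 and Lig1) and 0 rose, where 2.14% of all genes were called, 1.45% lower and 0.687% higher. Against GFP0 these 6 were also lower but were not called (limma adjusted p from 0.059 for Rad51ap1 to 0.37 for Xrcc6). The median difference from GFP1 and GFP2 was -0.86 for homologous recombination, -0.60 for end joining, -0.30 for the Fanconi list and 0.0681 for all genes. In 6 of 33 members (Fancd2, Brip1, Rad51ap1, Blm, Nbn and Lig1) every GFP4 array was below every GFP0, GFP1 and GFP2 array, which held for 1.32% of all genes.

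Lig1, the ligase that joins the fragments of the lagging strand in replication, had the smallest p of the members in this comparison. It measured 10.02 and 11.07 in GFP0, 11.10, 10.99 and 10.49 in GFP1, 11.08, 10.95 and 10.79 in GFP2, 10.71 and 10.67 in GFP3, and 9.50, 8.88, 9.73 and 9.23 in GFP4. GFP4 lay below all other arrays, while GFP3 was among them. The log2 difference was -1.56 ± 0.22 (2.96-fold lower, limma adjusted p = 0.00496), and Lig1 was the 1 member called by the F test for any difference between levels (adjusted p = 0.0368), where 0.698% of all genes were called. That F test call was kept in the fits without GFP0 replicate 1, GFP0 replicate 2, GFP1 replicate 3 or GFP4 replicate 2 and lost without each of the other arrays.

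Rad54l measured 8.38 and 9.76 in GFP0, 9.84, 8.99 and 9.05 in GFP1, 9.58, 9.38 and 9.30 in GFP2, 8.98 and 8.35 in GFP3, and 7.16, 7.06, 8.45 and 7.55 in GFP4. Of the GFP4 arrays 3 were below every other array and replicate 3 lay among the lower arrays of GFP0 and GFP3. The log2 difference was -1.80 ± 0.32 (3.49-fold lower, limma adjusted p = 0.0161). For Rad51ap1 it was -1.78 ± 0.31 (3.43-fold, adjusted p = 0.0161), and for Fancd2 -0.95 ± 0.17 (1.94-fold, adjusted p = 0.0171).

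Brca2, which acts on resected ends, measured 9.69 and 10.85 in GFP0, 10.68, 10.21 and 10.69 in GFP1, 10.67, 10.58 and 10.54 in GFP2, 10.34 and 10.06 in GFP3, and 9.69, 8.60, 9.72 and 9.69 in GFP4. GFP4 was below all GFP1 and GFP2 arrays, with replicate 2 far below the rest, and GFP0 replicate 1 was as low as the other GFP4 arrays. The log2 difference was -1.14 ± 0.26 (limma adjusted p = 0.0429). Xrcc6, the smaller Ku subunit, measured 9.46 and 10.24 in GFP0, 10.45, 10.00 and 10.30 in GFP1, 10.11, 10.24 and 10.45 in GFP2, 9.70 and 9.88 in GFP3, and 9.10, 8.43, 9.72 and 9.52 in GFP4. Its GFP4 arrays were likewise all below GFP1 and GFP2, with GFP0 replicate 1 among them, and the log2 difference was -1.07 ± 0.24 (limma adjusted p = 0.0405).

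**Figure D4:**
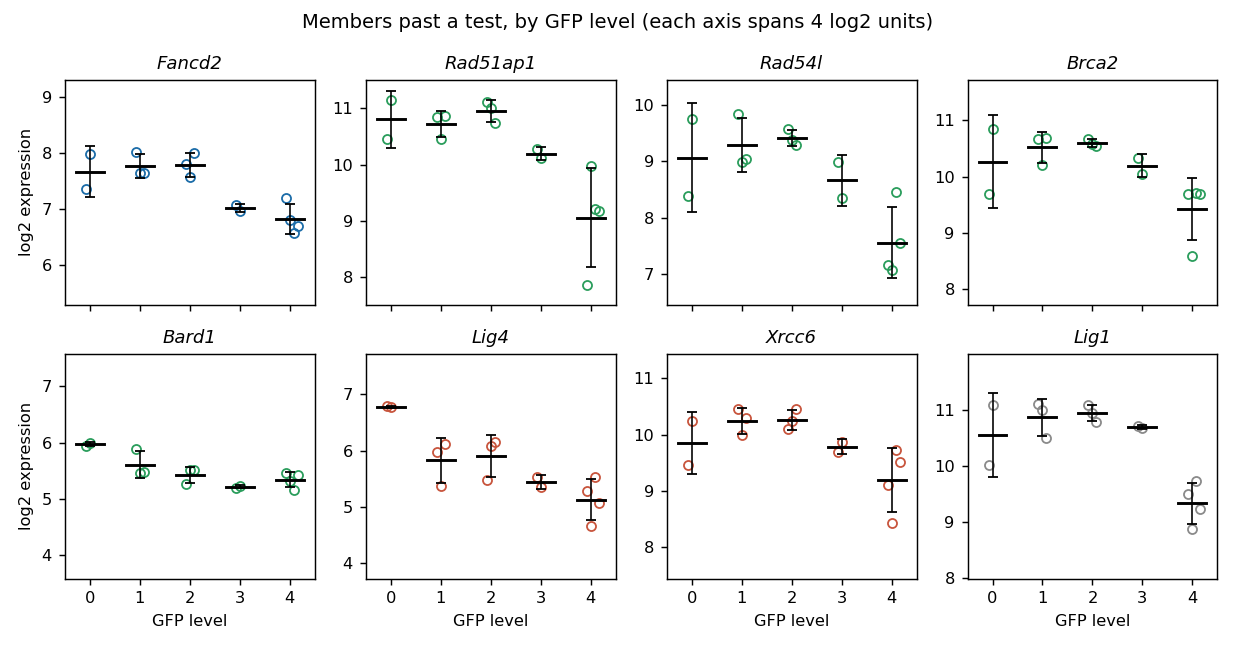
Log2 value per array (points) and group mean ± SD (bars) across GFP0 to GFP4 for the 8 repair genes that passed the slope test or the comparison of GFP4 with GFP1 and GFP2. Lig4 and Bard1 are highest in GFP0. All these genes have their lowest group mean in GFP4 except Bard1, which is lowest in GFP3.

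Of the 5 sensing genes 0 passed the slope test in limma, with 1 lower and 1 higher at an unadjusted p below 0.05, and their median slope was 0.02. Nbn, the adaptor of the break-binding complex of Mre11 and Rad50, measured 8.06 and 9.29 in GFP0, 9.17, 8.18 and 8.83 in GFP1, 8.76, 8.88 and 8.87 in GFP2, 8.47 and 8.48 in GFP3, and 7.95, 7.92, 8.04 and 7.77 in GFP4. All GFP4 arrays were below all others, and the slope of -0.18 did not pass (adjusted p = 0.21). Trp53bp1, which limits resection and so favours end joining, had the highest slope of all members, 0.23, and did not pass either (adjusted p = 0.15). It measured 11.80 and 12.44 in GFP0, 11.19, 11.57 and 12.55 in GFP1, 11.98, 12.46 and 12.65 in GFP2, 12.67 and 12.67 in GFP3, and 12.996, 13.02, 12.23 and 13.10 in GFP4. GFP4 was the highest group except for replicate 3, which lay among GFP1 and GFP2.

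The kinases Atm (slope -0.04) and Atr (0.04) and the strand-break sensor Parp1 (0.02) had slopes near 0. Level means of Atr were 8.24 ± 1.00 in GFP0, 8.28 ± 1.16 in GFP1, 8.88 ± 0.15 in GFP2, 8.26 ± 0.23 in GFP3, and 8.43 ± 0.33 in GFP4, and those of Parp1 were 9.96 ± 0.42 in GFP0, 10.13 ± 0.36 in GFP1, 10.11 ± 0.24 in GFP2, 10.31 ± 0.04 in GFP3, and 9.98 ± 0.43 in GFP4. Msh6, a mismatch sensor, had level means of 9.61 ± 0.69 in GFP0, 9.15 ± 1.12 in GFP1, 10.04 ± 0.36 in GFP2, 9.79 ± 0.18 in GFP3, and 8.83 ± 0.41 in GFP4 and a slope of -0.09 (adjusted p = 0.74).

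Probe sets of the same gene did not always move alike. The 33 members had 72 probe sets, 21 members had more than 1, and in 8 of these (Fancd2, Brca1, Xrcc6, Nhej1, Xrcc4, Atr, Trp53bp1 and Parp1) the slopes differed in sign. For Fancd2 the other probe sets differed from GFP1 and GFP2 by -0.25, 0.09 and 0.34, and with the mean over probe sets Fancd2 was not called in that comparison. The slopes of these probe sets were -0.04, 0.0009 and -0.03, so the slope call of Fancd2 rests on 1 of 4. The call of Rad51ap1 likewise rests on 1 of 4, since its other probe sets had slopes of -0.51 (adjusted p = 0.289), -0.05 and -0.08, and with the mean over probe sets its slope was -0.26 (adjusted p = 0.188). For Rad54l the 4 probe sets had slopes of -0.37, -0.31, -0.41 and -0.25, and the last passed when every probe set was tested by itself (adjusted p = 0.0297). The second probe set of Xrcc6 had a slope of 0.04 and a difference from GFP1 and GFP2 of -0.18.

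Other genes of the same routes, from a wider list, were set beside all genes, of which 1.07% fell by slope and 1.45% against GFP1 and GFP2. Of 34 further Fanconi and homologous recombination genes 1 fell, Brcc3 (-0.33 ± 0.07, limma adjusted p = 0.0287), which removes ubiquitin chains in a Brca1 complex, and 0 rose. Against GFP1 and GFP2, 5 of the 34 were lower: Ube2t and Usp1, which add and remove the ubiquitin of Fancd2, Rad50, Rpa3 and Brcc3. Of 17 further genes of end joining and break signalling 2 fell: the checkpoint kinase Chek1 (-0.37 ± 0.09, adjusted p = 0.0491) and Dntt (-0.81 ± 0.12, adjusted p = 0.00292), the terminal transferase of lymphoid progenitors. Dntt went from 13.77 ± 0.06 in GFP0 to 10.68 ± 1.15 in GFP4 (SD, n = 2 and 4). Against GFP1 and GFP2, 2 of the 17 were lower: Dntt (-2.80 ± 0.38, limma adjusted p = 0.00435) and H2ax (-1.49 ± 0.29, adjusted p = 0.0216).

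The means of S phase genes and of G2 and M phase genes were also lowest in GFP4. Of 27 S phase genes 10 fell by slope, with a median of -0.28, and their mean spanned 10.31 to 10.79 in GFP0, 10.38 to 10.78 in GFP1, 10.35 to 10.72 in GFP2, 9.90 to 10.19 in GFP3 and 9.03 to 9.83 in GFP4. Of 29 G2 and M phase genes 1 fell by slope and 15 fell against GFP1 and GFP2. Over all genes 1.07% fell by slope and 1.45% against GFP1 and GFP2. The mean of the G2 and M phase genes rose before it fell: 9.36 in GFP0, 9.93 in GFP1, 10.07 in GFP2, 9.42 in GFP3 and 8.57 in GFP4. The part of cell cycle genes in the values of repair genes was not tested. In sorted bulk RNA a smaller share of cycling cells and less RNA of these genes per cell cannot be told apart.

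The calls changed when single arrays were left out and with 3′ to 5′ covariates. Without an array in turn, the slope calls among members numbered 1 to 5. Lig4 was called in 13 of 14 such fits (not without GFP0 replicate 1), Fancd2 in 9, Bard1 in 4 and Rad51ap1 in 3. The count was 1, Lig4, without GFP0 replicate 2, GFP3 replicate 1, GFP3 replicate 2 or GFP4 replicate 4, and 2 without GFP2 replicate 2, GFP2 replicate 3 or GFP4 replicate 3. Lig4 in GFP4 against GFP0 was lost without either GFP0 array, when only 1 array of that level is left, and 3 members were called without GFP4 replicate 1 or replicate 2 and 2 without replicate 3. Against GFP1 and GFP2, Lig1 was called in 14 of 14 fits, Fancd2 and Rad51ap1 in 13, Rad54l in 12, and Brca2 and Xrcc6 in 4. There the count was 1, Lig1, without GFP4 replicate 4, 3 without GFP4 replicate 1 and 10 without GFP1 replicate 2. With the 3′ to 5′ differences of Actb and Gapdh as covariates, Lig4 was the 1 member called by slope, and 0 members and 9 of all genes passed against GFP1 and GFP2. Over GFP1 to GFP4, without the GFP0 arrays, the slope calls were Blm, Fancd2, Lig1, Rad51ap1 and Rad54l. Lig4 and Bard1 (slope -0.10) were not called there, so their slope calls depended on the GFP0 arrays.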

How the data were processed

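Amplified, biotin-labelled RNA of 14 sorted samples was hybridised to Affymetrix arrays, per the labels' protocols. The authors deposited log2 expression values per probe set, made with GCOS, RMA and affy (versions not given) per the submitters' processing notes. RMA subtracts background, normalizes quantiles and summarizes probes. The deposited arrays still differed in median (6.96 to 7.18) and interquartile range (2.09 to 2.73), and the reason was not tested. The deposited values come without detection calls. They span 2.69 to 15.1, and their number of arrays limits the precision.

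Of 45101 probe sets, 34958 named 1 symbol in the platform annotation. The brightest of each symbol gave 18194 genes. In limma 3.58.1 (R 4.3.3) a group-means model of the 14 arrays was moderated by eBayes, with residual df of 9 and prior df of 3.99, and the code was tested on simulated data. Contrasts were the slope per level, GFP4 against GFP0, the 4 steps, F tests, and, added after values were seen, GFP4 against GFP1 and GFP2. Tests were two-sided, adjusted by Benjamini-Hochberg over all genes at 0.05. Errors of levels are SDs over arrays, and those of contrasts moderated SEs. Array values are on the log2 scale of 1 probe set, so levels are not compared between genes.

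Named with values were members past a test, those with the lowest and highest slope of each list, and those whose probe sets differed in sign. Of the wider repair lists, genes past the slope threshold were named, and the genes called against GFP1 and GFP2 were named after their values were seen. The members and lists were chosen with earlier results of these data known. Same-numbered samples of different levels had correlations of deviations from -0.26 to 0.58 (9 of 23 over 0.1), so the numbers were not taken as pairs. Promoter windows are RefSeq's on GRCm38. Alternatives covered normalization, probe sets, filters, weights, covariates and left-out arrays. Figures were drawn with matplotlib 3.10.9.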

Additional observations from a re-analysis of the deposited data

Results flagged for a closer look

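In the GFP4 group of 4 arrays, 1 array stood apart from the others by Dixon's criterion in 3 of 37 quantities tested, where chance alone marks about 1 in 20 groups. Fancl measured 9.005 in GFP4 replicate 1 against 9.70 to 9.73 in the other arrays of that group. Brca2 measured 8.60 in GFP4 replicate 2 against 9.69 to 9.72. Trp53bp1 measured 12.23 in GFP4 replicate 3 against 12.996 to 13.10. The low array differed between the 3 genes.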

How the results depend on the processing

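Members called by slope numbered 4, and 2 with arrays centred on their medians, 0 with array quality weights and 1 with 3′ to 5′ covariates. All genes called by slope numbered 609, and 90 with weights, 165 with 3′ to 5′ covariates, 282 without GFP0, and 156 and 269 without the 2 or 3 arrays that stood apart (GFP0 replicate 1 and GFP4 replicate 1, then also GFP4 replicate 2). For GFP4 against GFP0, 1 member was called, and 3 with cyclic loess, 2 with the mean over probe sets, 0 with weights, 2 with the interquartile range as covariate, 0 with only those 2 levels, and 0 and 2 without 2 or 3 arrays. All genes numbered 306, and 2 with weights, 142 with 3′ to 5′ covariates, 58 with only those 2 levels, and 41 and 112 without 2 or 3 arrays. For GFP4 against GFP1 and GFP2, whose alternatives were all chosen after seeing the data, 6 members were called, and 13 with weights, 0 with 3′ to 5′ covariates and 3 with the interquartile range. All genes numbered 389, and 1122, 9 and 224 under those settings, and 169 and 182 without 2 or 3 arrays. Any difference between levels called 1 member, 5 with weights, and 0 with centring, loess, 3′ to 5′ covariates, the interquartile range or 2 arrays left out. The median slope of Fanconi and homologous recombination genes, -0.17, was -0.24 without GFP0 and -0.22 without 3 arrays.

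The replicate number, which did not pair the samples (6 of 14 arrays correlated best with their own number), gave as a block 1 member by slope (337 of all genes), 1 for GFP4 against GFP0 (67 of all genes), 1 for GFP4 against GFP1 and GFP2 (106) and 0 for any difference.

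Leaving out each array in turn gave 1 to 5 members and 182 to 768 genes by slope, 0 to 3 and 51 to 363 for GFP4 against GFP0, 1 to 10 and 94 to 590 against GFP1 and GFP2, 0 to 1 members for any difference and 0 for steps. Median slopes then ranged from -0.225 to -0.1388 for Fanconi and homologous recombination, -0.1835 to -0.0841 for end joining and -0.0707 to -0.0109 for the difference.

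Slopes of 11 members changed sign, among them Xrcc4 (0.15), Xrcc5 (0.12) and Nhej1 (-0.12), 3 of the 6 end-joining genes. Fancm was 0.0434 with 3′ to 5′ covariates, Xrcc5 -0.0776 without GFP0, and Nhej1 0.0256 and Xrcc4 -2e-04 without probe sets ending in _x_at or _s_at. Atr was -0.0397 with the mean over probe sets, -0.0394 with weights, -0.0063 with 3′ to 5′ covariates, -0.0436 with the interquartile range, -0.0147 without GFP0, and -0.1184 and -0.1576 without 2 or 3 arrays. Parp1 was -0.0156 with the mean over probe sets, -0.0045 with the block, -0.0268 without GFP0, -0.0024 by regression on the level number and -0.0326 without 2 arrays. Ranges with an array left out crossed 0 for Fancc (-0.0165 to 2e-04), Fancg (-0.0403 to 0.0943), Fancl (-0.1527 to 0.0377), Fancm (-0.1037 to 0.0187), Atm (-0.103 to 0.026), Atr (-0.1037 to 0.1792), Parp1 (-0.0384 to 0.0793) and Msh6 (-0.1893 to 0.0052). The cause of these differences was not tested. Dim probe sets without detection calls, Bard1 and Lig4 among them, limit what their values show.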
